A study of Mus musculus with 33 samples.

Results

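Cells that still lacked the surface antigen SSEA1 on day 6 of reprogramming were compared with mouse embryonic fibroblasts (MEFs). The comparison held 6 of the 33 libraries of the series, 3 titled d6 SSEA1- and 3 titled MEF, chosen by their titles alone. The series as a whole held 11 groups of 3 poly-A RNA-seq libraries each. All of them carried the strain label 129SV/Jae/C57BL6J. The d6 SSEA1- cells came from reprogramming cultures in ES media to which dox and AA were added, abbreviations left here as the labels give them, while the MEFs were grown in MEF media. Harvest with trypsin, antibody staining and FACS are described for the whole series. Reprogramming, medium and the selection of SSEA1-negative cells therefore cannot be told apart in this comparison. The labels used here name no transgene, no promoter and no source animal, and do not say whether the 3 libraries of a group came from separate cultures. The p-values accordingly measure the spread between libraries, which may be technical. Day 6 SSEA1+ cells and day 3 SSEA1- cells, 3 libraries each and under the same protocol labels, are given beside the MEF comparison where they show where the day 6 SSEA1- cells stood.

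Fibroblasts can be turned into induced pluripotent stem cells by forced expression of Oct4 (Pou5f1), Sox2, Klf4 and Myc. In this process cells first lose mesenchymal features, such as fibrillar collagen, stress fibres and factors of the Snail and Zeb families, and gain epithelial ones, such as E-cadherin. SSEA1 is a fucosylated sugar on the cell surface that appears on cells advancing towards pluripotency, whereas cells that stay SSEA1-negative include many that are delayed. Thy1 is a surface protein of fibroblasts that is lost along the same route.

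The d6 SSEA1- libraries held 25463231, 23872362 and 32593512 reads in genes, and the MEF libraries 23013702, 14373569 and 8927873. Levels are given as CPM, read counts scaled to a common library size with trimmed-mean factors, always in the order of replicates 1, 2 and 3. One edgeR quasi-likelihood model of all 33 libraries covered 17326 genes, and a gene passed at a Benjamini-Hochberg adjusted p under 0.05 with a fold change of at least 2. Fold changes are log2 values of d6 SSEA1- over MEF with the standard error after ±. Between the 2 groups 4888 genes passed, 28.2% of those tested. Of these, 2733 were higher in d6 SSEA1- cells (15.8%) and 2155 were lower (12.4%). The median of all tested genes lay at 0.13, so a log2 change near that value was the level of the average gene. Levels of the d6 SSEA1- group did not overlap those of the MEF group for 50.4% of tested genes. A change of this breadth means that the counts of a gene list have to be read against these shares.

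In bulk RNA, fewer cells of a type and less RNA per cell cannot be told apart, and this holds for every gene below. The 10 fibroblast markers summed to 8950, 12300 and 8580 CPM in d6 SSEA1- libraries and to 91500, 124000 and 111000 CPM in MEF libraries, and 7 of the 10 had fallen. Reads in no gene made up 9.29% to 9.95% of assigned, ambiguous and unassigned reads in d6 SSEA1- libraries and 5.54% to 6.19% in MEF libraries, and the 20 most abundant genes took 7.08% to 7.83% of gene reads in d6 SSEA1- libraries and 14.44% to 19.93% in MEF libraries; the part of these differences in the results was not tested. The macrophage and immune marker list summed to 17.0, 249 and 36.4 CPM in d6 SSEA1- cells and to 6.51, 240 and 37.9 CPM in MEFs, so that replicate 2 stood highest in both groups. The endothelial list summed to 247, 160 and 177 CPM, against 31.4, 21.4 and 39.4 CPM in MEFs, and nearly all of the d6 SSEA1- sum was Tek. Of its 10 genes 2 rose and 1 fell, shares near those of all genes. The endothelial genes Pecam1, Tie1 and Cldn5 were near 0 and did not pass. They held 37, 15 and 20 reads over the d6 SSEA1- libraries, against 2, 0 and 1 over the MEF libraries. Pecam1 and Tie1 passed in 2 of 12 alternatives each and Cldn5 in 1. Keratinocyte markers summed to 27.5, 15.1 and 12.8 CPM in d6 SSEA1- cells and to 36.4, 46.3 and 38.0 CPM in MEFs.

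**Figure D1:**
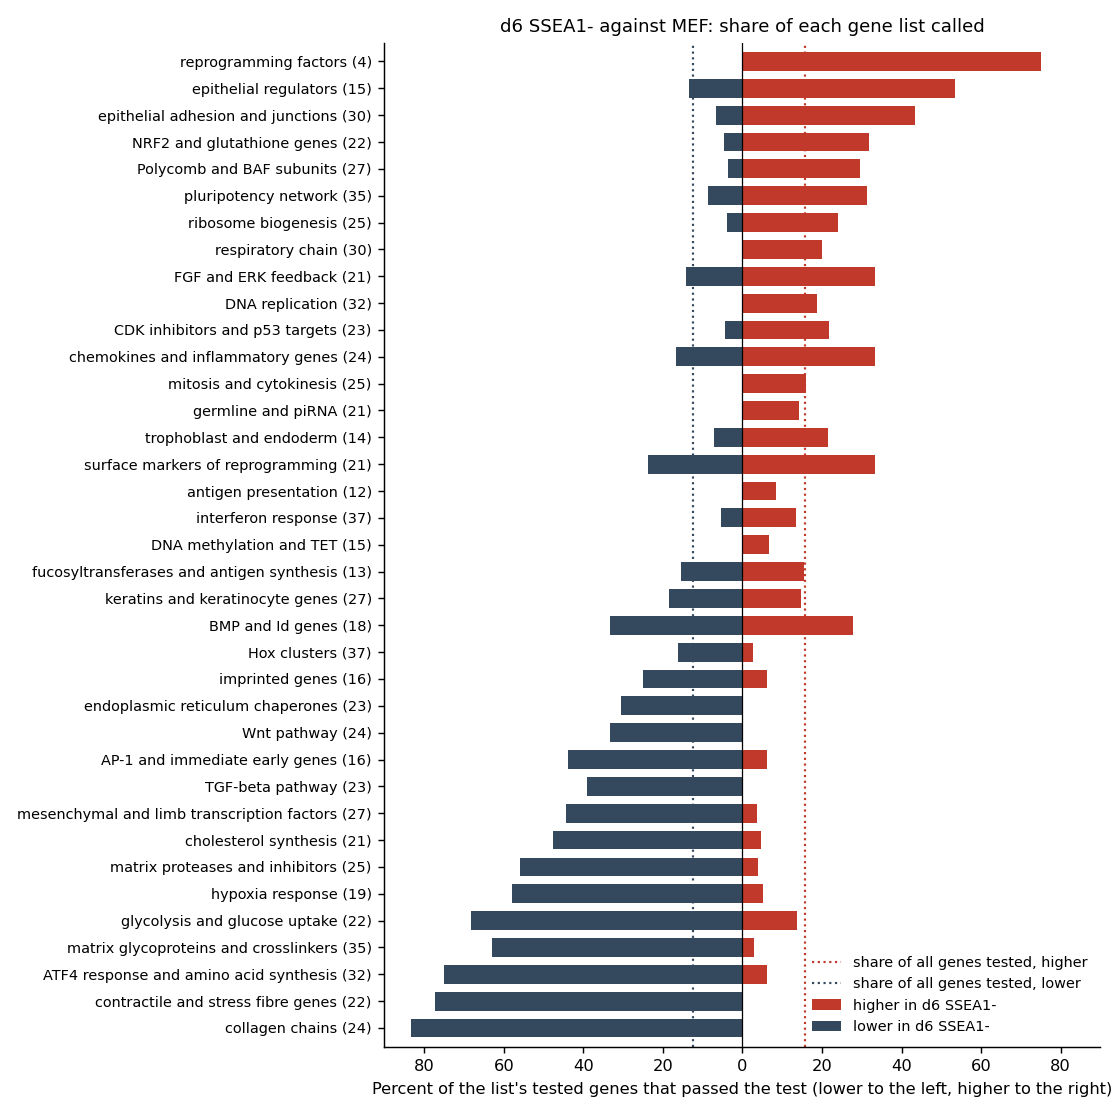
Share of each gene list, in percent of its tested genes, that passed the test in d6 SSEA1- cells against MEFs, with higher genes drawn to the right and lower genes to the left; the number of tested genes stands in parentheses and dotted lines mark the shares of all tested genes (15.8% higher, 12.4% lower). Collagen, contractile, ATF4 and glycolysis lists extend furthest to the left, and the reprogramming factors and epithelial lists furthest to the right.

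Of the gene lists, those of collagens, contractile genes, the ATF4 response and glycolysis had the largest shares of fallen genes, and those of the reprogramming factors and epithelial genes the largest shares of risen genes. The plot of the share of each list that passed gives all 37 lists. The lists and their members are described in turn below, first the reprogramming factors and the pluripotency network, then the fibroblast programme, signalling, the epithelial genes, metabolism and stress, and the immune and chromatin genes.

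The 4 reprogramming factors were higher in every d6 SSEA1- library than in every MEF library, and 3 of the 4 passed the test. Pou5f1, the Oct4 gene, had 83.1, 34.0 and 34.0 CPM in d6 SSEA1- cells, against 4.82, 2.60 and 2.92 CPM in MEFs (log2 3.83 ± 0.76, adjusted p = 0.00027). Myc, a growth regulator, had 235, 447 and 409 CPM, against 87.2, 102 and 104 CPM in MEFs (log2 1.90 ± 0.40, adjusted p = 0.00048). Sox2, the partner of Oct4 on pluripotency genes, had 11.2, 42.7 and 17.5 CPM, against 5.81, 2.42 and 4.04 CPM in MEFs (log2 2.51 ± 0.75, adjusted p = 0.0088). Replicate 2 of the d6 SSEA1- group held the highest Sox2 level. Without that library the change was 1.79 with an adjusted p of 0.07, and without MEF replicate 2 it was 2.15 with an adjusted p of 0.056. Klf4 had 170, 142 and 102 CPM, against 100, 48.8 and 79.7 CPM in MEFs, and did not pass (log2 0.85 ± 0.36, adjusted p = 0.06), though it did without d6 SSEA1- replicate 3 (1.03, adjusted p = 0.048). Reads of a gene's own locus and of any introduced copy cannot be told apart in these counts.

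All 4 factors were lower in d6 SSEA1- cells than in day 6 SSEA1+ cells, a comparison in which 6.31% of genes passed downward. Pou5f1 averaged 50.4 ± 28.4 CPM in d6 SSEA1- cells and 220 ± 8.62 CPM in d6 SSEA1+ cells (SD, n = 3 each), a log2 difference of -2.13. The differences were -3.81 for Sox2, -2.16 for Klf4 and -1.21 for Myc. None of the 4 passed against day 3 SSEA1- cells, a comparison in which 805 genes passed upward (4.65%) and 214 downward (1.24%). With the replicate block 1228 genes passed upward in that comparison.

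**Figure D2:**
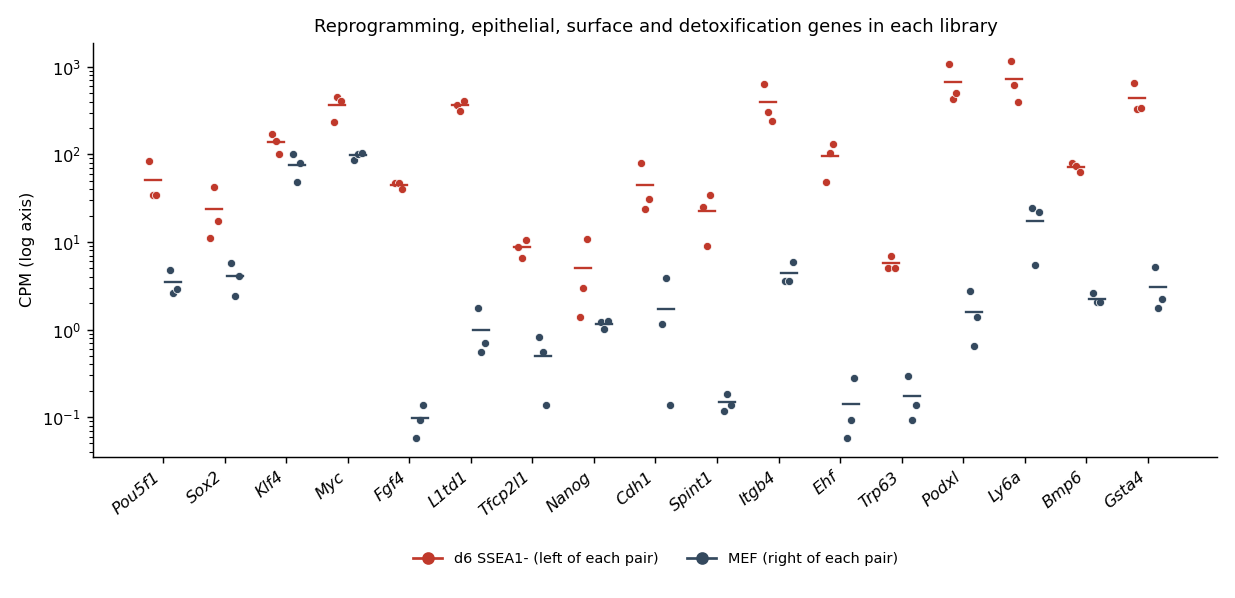
CPM on a log axis of 17 genes in each of the 3 d6 SSEA1- libraries (left of each pair) and the 3 MEF libraries (right), with a line at each group's mean. Klf4 and Nanog are the genes of this panel that did not pass the test; Fgf4, Ehf and Spint1 lie at or under 0.28 CPM in every MEF library and above 8 CPM in every d6 SSEA1- library.

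Part of the pluripotency network was on in d6 SSEA1- cells and part was not. Of its 35 tested genes 11 rose and 3 fell, with a median of 0.67 against 0.13 for all genes. Leaving out MEF replicate 2 left 7 risers. L1td1, an RNA-binding protein of early embryonic cells, had 369, 311 and 412 CPM in d6 SSEA1- cells, against 1.74, 0.558 and 0.696 CPM in MEFs (log2 8.38 ± 0.80, adjusted p = 2.3e-08). Fgf4, a growth factor of the inner cell mass, had 47.2, 46.9 and 40.1 CPM, whereas the MEF libraries held 3 reads in all (0.0581, 0.0930 and 0.139 CPM). The ratio was 519, with an exact 95% counting interval of 177 to 2520. Both genes were close to even across the 3 d6 SSEA1- libraries.

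Tfcp2l1, a transcription factor of naive pluripotent cells, had 8.85, 6.51 and 10.6 CPM, against 0.814, 0.558 and 0.139 CPM in MEFs (log2 3.91 ± 0.71). Sall1 had 20, 11.0 and 26.4 CPM, against 3.84, 3.44 and 4.17 CPM in MEFs (log2 2.33 ± 0.37). Fbxo15, used as an early reporter gene of reprogramming, had 4.06, 17.7 and 20.7 CPM, against 0.291, 0.465 and 0.278 CPM in MEFs (log2 5.34 ± 1.08). These rose in all 3 libraries, but Fbxo15 was much lower in replicate 1 than in the others.

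Nanog, a core pluripotency factor, had 1.39, 2.99 and 10.8 CPM, against 1.22, 1.02 and 1.25 CPM in MEFs. The groups did not overlap, but replicate 3 was far above the other libraries and the change did not pass (log2 2.13 ± 0.92, adjusted p = 0.067). DESeq2's Wald test passed it at 1.99 with an adjusted p of 0.027, and so did the fit without d6 SSEA1- replicate 1, at 2.57 with an adjusted p of 0.032. Nanog stood higher than in day 3 SSEA1- cells (log2 3.11) and lower than in day 6 SSEA1+ cells (log2 -2.36). Esrrb, Zfp42, Utf1 and Lin28a, all genes of established pluripotent cells, stayed at or under 1.16 CPM in every d6 SSEA1- library, and Dppa4 had no read in any of the 6. Klf2, Klf5 and Tbx3, which pluripotent cells also use, were the 3 that fell, and Klf5 (log2 -1.47) lost its call in 5 of 13 alternatives, among them without MEF replicate 1 (adjusted p = 0.18) and without d6 SSEA1- replicate 2 or 3 (adjusted p = 0.11 for both). Within the network 15 genes were lower than in d6 SSEA1+ cells and none was higher, while 7 were higher than in day 3 SSEA1- cells and none was lower. With the replicate block, the comparison with day 3 cells gave 8 higher and 1 lower.

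The collagen genes had the highest share of fallen members among the 37 lists. Of 24 tested chains 20 fell and none rose (median -2.59), and all 20 lay below MEF levels without overlap. Of all tested genes 50.4% did not overlap, in either direction. Col1a1, a chain of the main fibrillar collagen, had 521, 2590 and 1450 CPM in d6 SSEA1- cells, against 36100, 38400 and 38300 CPM in MEFs (log2 -4.63 ± 0.93, adjusted p = 0.00032). The MEF libraries were nearly equal, and replicate 1 of the d6 SSEA1- group was lowest. Col5a1, which nucleates fibrils, had 229, 503 and 341 CPM, against 6780, 10200 and 10400 CPM in MEFs (log2 -4.67 ± 0.56). Col7a1, the anchoring fibril collagen of skin, had 4.13, 11.2 and 3.66 CPM, against 182, 832 and 476 CPM in MEFs (log2 -6.30 ± 0.66). Col5a3, Col5a2, Col14a1 and Col16a1 fell by 5.16, 3.66, 3.54 and 3.51 on the log2 scale. The network collagen chains Col4a5 and Col4a6 did not pass.

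**Figure D3:**
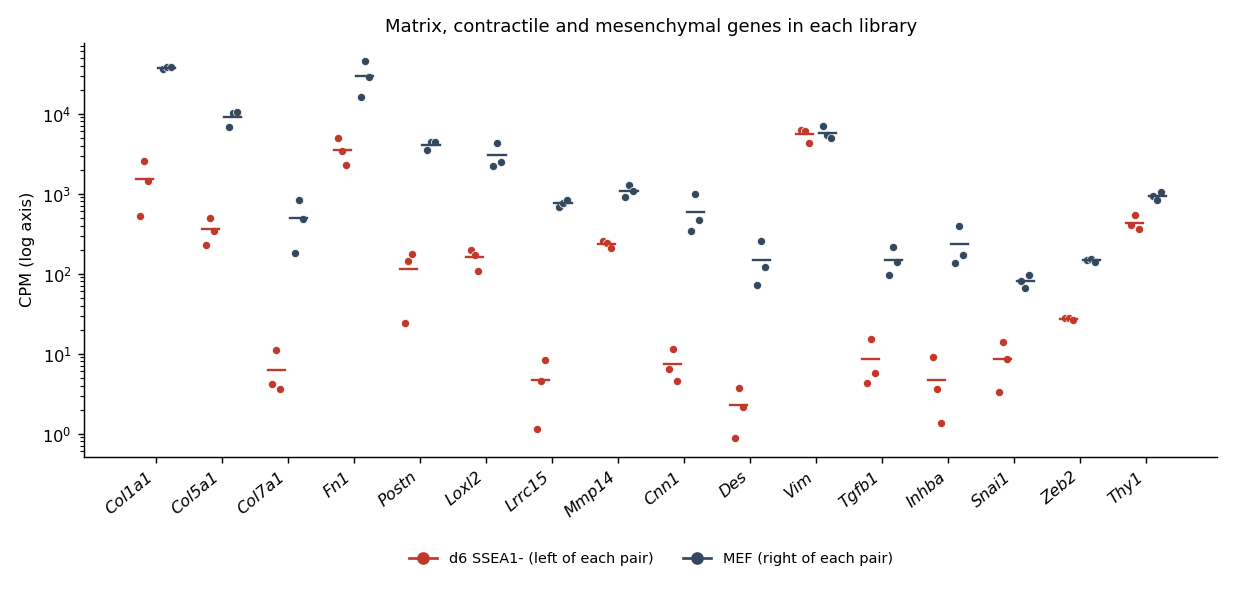
CPM on a log axis of 16 matrix, contractile and mesenchymal genes in each of the 3 d6 SSEA1- libraries (left of each pair) and the 3 MEF libraries (right), with a line at each group's mean. Groups are separate for all genes drawn except Vim, whose levels overlap; Thy1 is separate but did not pass the test.

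The wider matrix followed the same direction. Of 35 matrix glycoproteins and crosslinking enzymes 22 fell and 1 rose (median -2.31). Fn1, fibronectin, had 4910, 3380 and 2310 CPM, against 16200, 44900 and 28400 CPM in MEFs (log2 -3.08 ± 0.37, adjusted p = 7.1e-07). Postn, a matricellular protein of activated fibroblasts, had 24.3, 143 and 176 CPM, against 3510, 4450 and 4380 CPM in MEFs (log2 -5.17 ± 0.80). Loxl2, a collagen-crosslinking amine oxidase, had 198, 171 and 109 CPM, against 2230, 4300 and 2500 CPM in MEFs (log2 -4.24 ± 0.42, adjusted p = 4e-08). Fibronectin remained among the abundant transcripts in spite of its fall, while periostin was lowest in replicate 1. Fmod, fibromodulin, was the exception, with 797, 1090 and 633 CPM, against 206, 80.4 and 256 CPM in MEFs (log2 2.22 ± 0.80, adjusted p = 0.028). Its call was lost without MEF replicate 1 (2.22, adjusted p = 0.073) or replicate 2 (1.77, adjusted p = 0.14), without d6 SSEA1- replicate 2 (1.99, adjusted p = 0.073) and without the filter on low counts (2.27, adjusted p = 0.054). Fmod lies outside the rule for named genes and is given because it was the only riser.

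Of 25 matrix proteases and inhibitors 14 fell and 1 rose. Mmp14, a membrane-bound collagenase, had 254, 239 and 210 CPM, against 915, 1290 and 1080 CPM in MEFs (log2 -2.22 ± 0.27). Adamts12, Mmp19, Plat and Adamts4 fell by 4.06, 3.00, 2.89 and 2.38 on the log2 scale. Mmp3, stromelysin, was the riser, but unevenly, with 2.74, 81.6 and 42.4 CPM against 1.80, 0.837 and 4.59 CPM in MEFs, so that replicate 1 fell within the MEF range. Hgf, the hepatocyte growth factor that fibroblasts secrete, had 0.193, 0.323 and 0.293 CPM, against 30.2, 24.4 and 24.1 CPM in MEFs (log2 -6.57 ± 0.86). Lrrc15, a membrane protein of activated fibroblasts, had 1.16, 4.49 and 8.22 CPM, against 679, 764 and 842 CPM in MEFs (log2 -7.35 ± 0.66).

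Of 22 tested contractile genes 17 fell and none rose (median -2.01). Cnn1, the calponin of smooth muscle, had 6.41, 11.5 and 4.53 CPM, against 338, 993 and 463 CPM in MEFs (log2 -6.32 ± 0.72). Des, desmin, had 0.889, 3.76 and 2.16 CPM, against 72.1, 254 and 122 CPM in MEFs (log2 -6.04 ± 0.80). Changes were smaller for the broadly used actin-binding and motor genes: Myh10, a non-muscle myosin, had 279, 319 and 280 CPM, against 1160, 1330 and 1020 CPM in MEFs (log2 -2 ± 0.20, adjusted p = 5e-08). Myh9, Flna and Actn1 fell by 2.22, 2.23 and 2.02 on the log2 scale. Vim, vimentin, which marks mesenchymal cells at large, did not pass, with 6290, 6020 and 4300 CPM against 6980, 5360 and 5020 CPM in MEFs (log2 -0.06). The 10 skeletal muscle markers summed to 1.85, 4.61 and 3.51 CPM in d6 SSEA1- cells and to 75.8, 256 and 125 CPM in MEFs. Nearly all of the MEF sum was Des. Of the 6 markers tested 2 fell and none rose. The muscle determination genes Myod1 and Myf6 had no reads in the 6 libraries. Myog held 2 reads over the d6 SSEA1- libraries and 7 over the MEF libraries.

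Promoters of contractile genes are known to carry the CArG box, the site of serum response factor, a regulator that responds to the state of actin. Among the 20 tested list members with a promoter in RefSeq, 4 (20%) held a CArG box on either strand within the 300 bases from 250 before to 50 after the start, against 1.57% of 27025 promoters. Contractile genes are known for this box, so the excess of the list over all promoters is no result of these data. Of the 16 that fell, 3 held the box (18.8%), a share near that of the list. They are shown because the box lies among their own upstream bases: 250 bases before the start, GRCm38.p6, 5′ to 3′ on the strand of the gene, with the CArG box in capitals. Myl9 encodes a myosin light chain (chr2:156775214-156775463, plus strand), Cnn2 a calponin (chr10:79988350-79988599, plus strand) and Vcl vinculin of focal adhesions (chr14:20929148-20929397, plus strand).
Myl9: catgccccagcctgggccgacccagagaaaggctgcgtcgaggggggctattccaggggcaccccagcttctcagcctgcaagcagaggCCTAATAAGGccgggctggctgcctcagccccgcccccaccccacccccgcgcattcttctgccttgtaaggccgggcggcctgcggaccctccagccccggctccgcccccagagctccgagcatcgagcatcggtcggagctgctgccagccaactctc
Cnn2: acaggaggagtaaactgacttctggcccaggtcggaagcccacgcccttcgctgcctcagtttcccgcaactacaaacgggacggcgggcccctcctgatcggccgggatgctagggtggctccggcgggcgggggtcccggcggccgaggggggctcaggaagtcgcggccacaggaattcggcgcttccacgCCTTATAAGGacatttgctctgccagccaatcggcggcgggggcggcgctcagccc
Vcl: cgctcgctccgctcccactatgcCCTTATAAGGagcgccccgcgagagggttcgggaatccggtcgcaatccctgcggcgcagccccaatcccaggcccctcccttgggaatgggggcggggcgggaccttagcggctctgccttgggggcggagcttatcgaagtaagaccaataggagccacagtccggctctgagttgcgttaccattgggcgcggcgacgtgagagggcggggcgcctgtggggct
The box begins 161 bases before the start in Myl9, 56 in Cnn2 and 227 in Vcl. Myl9 had 170, 317 and 191 CPM, against 849, 1350 and 920 CPM in MEFs (log2 -2.20 ± 0.48). Cnn2 had 423, 562 and 344 CPM, against 1300, 1290 and 1250 CPM in MEFs (log2 -1.53 ± 0.33). Vcl had 470, 141 and 93.6 CPM, against 966, 1320 and 964 CPM in MEFs (log2 -2.20 ± 0.43). All 3 lie outside the rule for named genes. Srf, the gene of the factor itself, holds the box too and did not pass (log2 -0.95). It passed in 5 of 13 alternatives, among them DESeq2's Wald test (-1.06), and was at 0.21 with the GC trend removed. A match describes these letters and no binding was measured.

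Mesenchymal transcription factors fell in part. Of 27 tested, 12 fell and 1 rose (median -0.91). Snai1, a repressor of E-cadherin, had 3.32, 14.1 and 8.51 CPM, against 81.7, 65.8 and 96.0 CPM in MEFs (log2 -3.23 ± 0.66). Its relative Snai2 had 21.8, 25.9 and 18.1 CPM, against 80.7, 128 and 132 CPM in MEFs (log2 -2.37 ± 0.42). Zeb2, another repressor of epithelial genes, had 27.9, 27.6 and 26.2 CPM, against 148, 154 and 138 CPM in MEFs (log2 -2.43 ± 0.54). Levels of these 3 were still measurable in each d6 SSEA1- library. Twist2, Osr1 and Foxc2 fell by 3.65, 3.04 and 4.22 on the log2 scale, whereas Twist1 (log2 0.14 ± 0.36) and Prrx1 (log2 -0.70 ± 0.45) did not pass. The riser was Meox2, at log2 1.90 ± 0.70 (adjusted p = 0.032), a call lost in 8 of 13 alternatives, among them without MEF replicate 2 (1.28, adjusted p = 0.15) or replicate 3 (1.76, adjusted p = 0.10) and without d6 SSEA1- replicate 2 (1.81, adjusted p = 0.068) or replicate 3 (1.70, adjusted p = 0.09). Zeb1 is listed at 0 reads in all 33 libraries, so its count is no measure of its RNA.

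Fibroblast genes were lower than in MEFs but higher than in day 6 SSEA1+ cells, in a comparison in which 10.1% of genes passed upward. There, 16 collagen chains, 24 matrix, 20 protease, 8 contractile and 15 mesenchymal factor genes were higher in d6 SSEA1- cells. Col1a1 averaged 31.0 CPM in d6 SSEA1+ cells, a log2 difference of 5.61 in favour of d6 SSEA1- cells. Snai2 averaged 1.27 CPM there, a difference of 4.11. Against day 3 SSEA1- cells fewer of these genes differed: 4 collagen, 7 matrix, 5 protease and 1 contractile gene were higher in d6 SSEA1- cells and none was lower. With the replicate block, 8 protease and 2 contractile genes were higher. Thy1 had 401, 540 and 357 CPM, against 925, 830 and 1060 CPM in MEFs, and narrowly missed the threshold (log2 -1.12 ± 0.47, adjusted p = 0.061). DESeq2's Wald test (-1.23, adjusted p = 0.029) and the fit of these 6 libraries alone (-1.14, adjusted p = 0.0079) passed it. It averaged 31.3 CPM in d6 SSEA1+ cells, a log2 difference of 3.79.

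**Figure D4:**
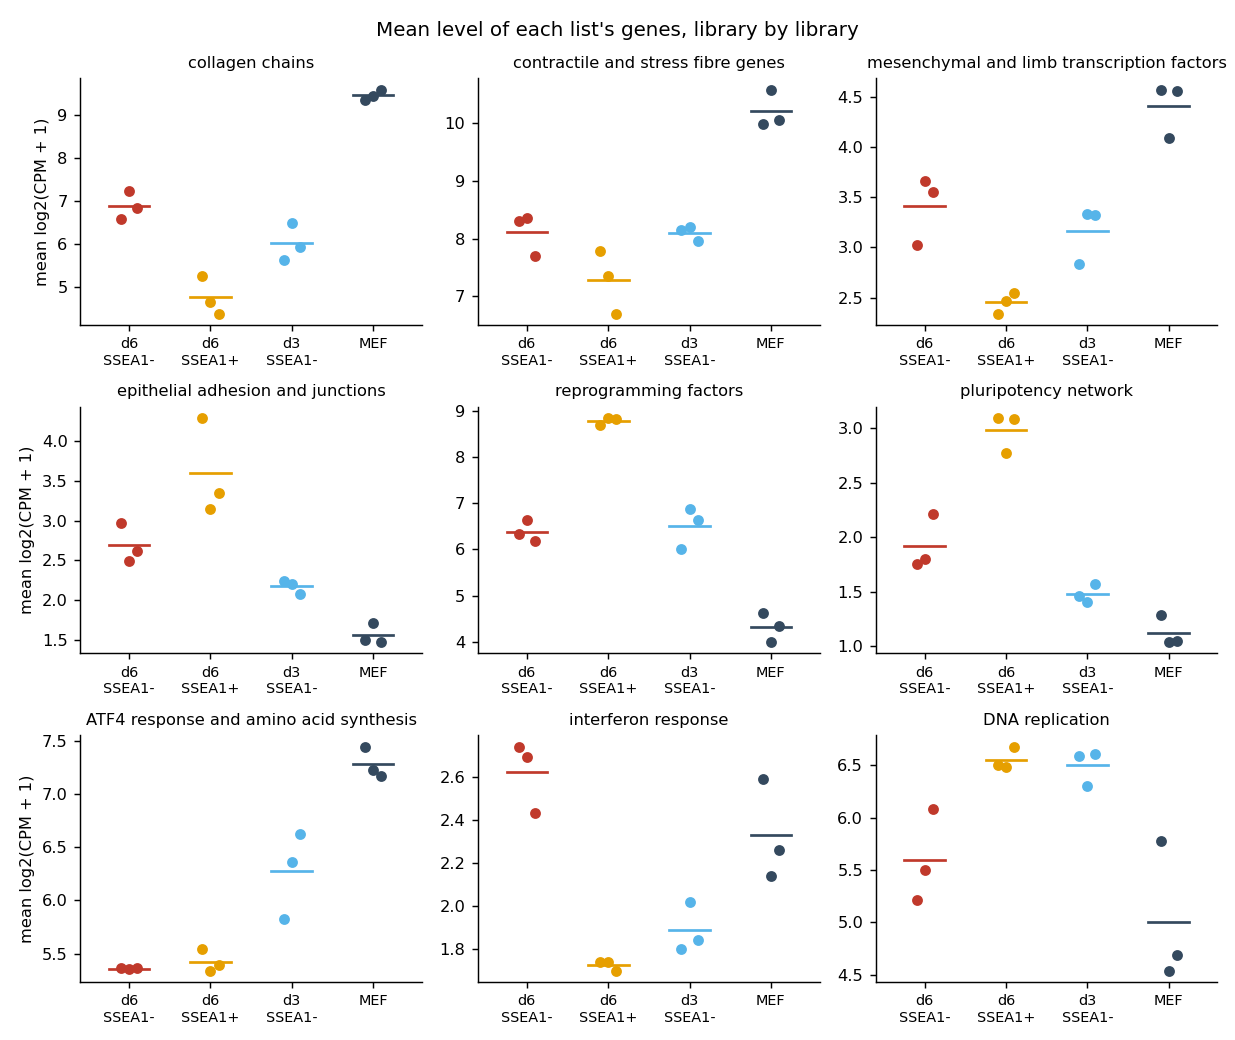
Mean log2(CPM + 1) over all genes of 9 lists, 1 point per library and a line at the mean of 3, for d6 SSEA1-, d6 SSEA1+, d3 SSEA1- and MEF. Collagen chains lie at 6.56 to 7.22 in d6 SSEA1- libraries, 4.37 to 5.24 in d6 SSEA1+, 5.61 to 6.47 in d3 SSEA1- and 9.33 to 9.58 in MEF; the ATF4 list lies at 5.35 to 5.36 in d6 SSEA1- and 7.17 to 7.45 in MEF.

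Among the Hox genes, which record position along the body axis, 6 of 37 fell and 1 rose. The share that fell was near the 12.4% of all genes. Hoxb9 had 9, 8.53 and 5 CPM, against 58.9, 74.4 and 49.5 CPM in MEFs (log2 -3.02 ± 0.47). Its neighbour Hoxb8 had 0.270, 0.566 and 0.322 CPM, against 3.20, 5.76 and 4.04 CPM in MEFs (log2 -3.47 ± 0.56). Hoxb3 and Hoxc12 fell by 2.16 and 2.91 on the log2 scale. Hoxa9 was higher, at 28.5, 40.5 and 46.9 CPM against 13.3, 16.1 and 16.3 CPM in MEFs (log2 1.35 ± 0.47, adjusted p = 0.023), but lost its call without any one MEF library (1.15 to 1.31, adjusted p = 0.073 to 0.11) and with the GC trend removed (1.15, adjusted p = 0.051). Over the alternatives tried, 4 to 10 Hox genes fell.

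Of the TGF-beta pathway, which drives matrix production and holds cells mesenchymal, 9 of 23 genes fell and none rose (median -0.79). The falls were in ligands and in targets. Tgfb1 had 4.25, 15.4 and 5.79 CPM, against 95.1, 214 and 140 CPM in MEFs (log2 -4.14 ± 0.54, adjusted p = 2e-06). Inhba, the activin A subunit, had 9.16, 3.6 and 1.37 CPM, against 136, 395 and 169 CPM in MEFs (log2 -5.64 ± 0.72). Tgfb3 fell by 2.33, and the feedback target Pmepa1 by 2.77, on the log2 scale. The receptor genes Tgfbr1 (log2 0.01), Tgfbr2 (log2 -0.53) and Tgfbr3 (log2 -0.19) did not pass.

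BMP signalling genes split. Bmp6, a ligand, had 80.5, 73.8 and 63.2 CPM, against 2.62, 2.05 and 2.09 CPM in MEFs (log2 4.99 ± 0.47, adjusted p = 1.9e-08). Both groups were tight and did not overlap. The secreted regulator Bmper fell by 3.30 on the log2 scale. The Id genes are classical BMP targets that block differentiation factors. Id1 had 74.5, 123 and 81.6 CPM, against 32.9, 16.2 and 18.1 CPM in MEFs (log2 2.05 ± 0.38). Id2 had 188, 138 and 227 CPM, against 57.9, 16.4 and 19.5 CPM in MEFs (log2 2.55 ± 0.48). Id4 rose by log2 2.78 ± 0.43, and Id3 did not pass (log2 0.26 ± 0.53). In all, 5 of 18 genes rose and 6 fell.

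In the Wnt pathway 8 of 24 genes fell and none rose (median -0.98). Wnt5a, a ligand of limb and mesenchyme, had 32.9, 39.3 and 42.8 CPM, against 202, 201 and 179 CPM in MEFs (log2 -2.34 ± 0.43). Ccn4, a matricellular Wnt target, had 98.7, 91.8 and 79.6 CPM, against 565, 1180 and 835 CPM in MEFs (log2 -3.26 ± 0.46). Wnt11, Dkk3, Fzd2 and Wnt9a fell by 3.14, 2.74, 2.37 and 1.67 on the log2 scale. Set against day 3 SSEA1- cells, 8 Wnt genes were higher in d6 SSEA1- cells, Dkk3 among them, at a log2 difference of 3.09.

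FGF and ERK feedback genes rose more often than they fell, by 7 against 3 of 21. The transcription factor Etv5 had 185, 136 and 184 CPM, against 34.2, 38.7 and 35.1 CPM in MEFs (log2 2.23 ± 0.26, adjusted p = 4.6e-07). Spry4, a feedback inhibitor, had 83.1, 87.0 and 99.5 CPM, against 24.1, 24.3 and 24.8 CPM in MEFs (log2 1.88 ± 0.24, adjusted p = 1.1e-06). The libraries of each group differed little. Etv1 rose by log2 3.01 ± 0.45, and the ligand Fgf18 by log2 2.02 ± 0.37. Fgf21, a stress-induced hormone, held 1 read over the 3 d6 SSEA1- libraries, against 2.56, 5.30 and 4.59 CPM in MEFs, a ratio of 323 in favour of MEFs with a 95% counting interval of 57.0 to 12900.

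Epithelial adhesion genes rose at 13 of 30, with 2 down (median 2.12). Cdh1, E-cadherin, had 79.9, 23.6 and 31.0 CPM, against 1.16, 3.90 and 0.139 CPM in MEFs (log2 4.64 ± 0.83). Cdh3, P-cadherin, moved the other way, with 2.94, 6.83 and 7.84 CPM against 183, 146 and 208 CPM in MEFs (log2 -4.93 ± 0.50, adjusted p = 5e-08). The 2 classical cadherins moved in opposite directions. Itgb4, the integrin of hemidesmosomes, had 638, 303 and 243 CPM, against 3.6, 3.63 and 5.98 CPM in MEFs (log2 6.51 ± 0.58, adjusted p = 8.8e-09). St14, the protease matriptase, had 54.5, 16.0 and 19.9 CPM, against 0.465, 0.744 and 0.278 CPM in MEFs (log2 5.87 ± 0.74). Spint2, its inhibitor, rose by log2 2.55 ± 0.34. Perp, a desmosome-associated target of p53 family factors, had 516, 105 and 62.3 CPM, against 0.697, 0.279 and 0.417 CPM in MEFs (log2 8.82 ± 1.19). Replicate 1 was the highest of the d6 SSEA1- group for Cdh1, Itgb4, St14 and Perp alike.

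Of the tight junction genes, Cldn3, a claudin, passed with 0.193, 1.62 and 2.43 CPM, against 0.0581, 0.093 and 0 CPM in MEFs, a ratio of 26.5 with a 95% counting interval of 7.2 to 221. Cldn7, Lsr and Tjp3 each stayed at or under 1.46 CPM in every d6 SSEA1- library and did not pass, although Tjp3 did with the GC trend removed (log2 2.06, adjusted p = 0.017); all 3 were lower than in d6 SSEA1+ cells (log2 -2.92, -3.43 and -2.46). Epcam, an adhesion protein of pluripotent and epithelial cells, rose to 4.83, 2.99 and 6.49 CPM, against 0.523, 0.465 and 0.278 CPM in MEFs (log2 3.40 ± 0.66). Of the 30 adhesion genes 17 were lower than in d6 SSEA1+ cells and 1 was higher. Cdh1 averaged 152 CPM there; its log2 difference of -1.76 missed the threshold with an adjusted p of 0.056, and passed with the replicate block, at -1.62 with an adjusted p of 0.044. These 4 tight junction genes were chosen after their values were seen.

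Epithelial regulators rose at 8 of 15, with 2 down (median 3.68). Ehf, an ETS factor of epithelia, had 48.8, 104 and 132 CPM, against 0.0581, 0.0930 and 0.278 CPM in MEFs (log2 9.61 ± 0.85, adjusted p = 7.9e-09). It was also higher than in day 3 SSEA1- cells. Trp63, which specifies stratified epithelia, had 5.10, 6.99 and 5 CPM, against 0.291, 0.0930 and 0.139 CPM in MEFs (log2 4.87 ± 0.96), and was higher than in d6 SSEA1+ cells, where it averaged 0.383 CPM (log2 3.88). Grhl3, a grainyhead factor, had 3.32, 0.566 and 1.08 CPM and no read in MEFs, at least 18.9-fold higher against a floor of 3 reads over the MEF group. Ovol2 was likewise at least 7.60-fold higher. Grhl1 had 1.39, 3.11 and 6.09 CPM with 3 reads in MEFs, a ratio of 44.4 (95% counting interval 15.0 to 216). Tfap2c had 0.773, 4.85 and 17.5 CPM, against 0.116, 0.186 and 0 CPM in MEFs (log2 6.03 ± 1.32). Its level differed widely between the d6 SSEA1- libraries, with replicate 3 highest.

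Keratins did not follow these regulators. Of 27 keratin and keratinocyte genes 4 rose and 5 fell (median 0.02), shares near those of all genes. Krt5, a basal keratin, held 20 reads over the d6 SSEA1- libraries and none in MEFs, at least 2.76-fold higher. Krt8, a keratin of simple epithelia, had 13.5, 2.99 and 5.50 CPM, against 3.25, 1.3 and 2.64 CPM in MEFs, with overlap (log2 1.59 ± 0.89, adjusted p = 0.16). Krt10 rose by log2 1.19 ± 0.29, while Krt7 fell by 2.98 on the log2 scale. The cornified envelope gene Ivl was at least 12.1-fold higher in MEFs, where the libraries held 15 reads in all, a call that DESeq2's Wald test did not give (adjusted p = 0.064). Sprr1a had a ratio of 112 in favour of MEFs (95% counting interval 30.2 to 940).

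The largest increases by the rule for named genes were largely of genes that MEFs barely transcribed. Slc12a3, a salt cotransporter of kidney, had 4.75, 24.4 and 23.4 CPM and no MEF read, at least 211-fold higher. Aqp4, a water channel, had 19, 21.7 and 9.04 CPM and no MEF read, at least 185-fold higher, and Pdzph1 was at least 132-fold higher. Aldh3a1, an aldehyde dehydrogenase of corneal epithelium, had 588, 317 and 184 CPM, against 0.407, 0 and 0 CPM in MEFs (log2 10.85 ± 1.09, adjusted p = 4.4e-08). Cacna2d2, a calcium channel subunit, had 46.4, 91.5 and 152 CPM, against 0.0581, 0.186 and 0.139 CPM in MEFs (log2 9.65 ± 1.2). Pllp, a myelin and epithelial membrane protein, had 59.9, 95.2 and 125 CPM, against 0.116, 0.186 and 0 CPM in MEFs (log2 9.62 ± 0.80, adjusted p = 2.9e-09). Tmprss5, a membrane protease, had 48.0, 99.4 and 103 CPM, against 0.0581, 0.186 and 0.139 CPM in MEFs (log2 9.44 ± 1.06).

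Others of this set held 1 or 2 MEF reads. Ratios with 95% counting intervals were 1040 (186 to 41100) for the tachykinin gene Tac2, 807 (223 to 6670) for the aspartoacylase Aspa, 807 (223 to 6660) for Sptssb, a subunit of the enzyme that starts sphingolipid synthesis, and 635 (176 to 5240) for Insm1, a factor of neuroendocrine cells. Tac2 and Insm1 were uneven, with 2.67, 16.7 and 59.2 CPM and 8.27, 27.5 and 63.4 CPM in d6 SSEA1- libraries. The counting intervals pool the reads of a group and leave out this spread. Slc12a3, Aqp4, Pdzph1, Cacna2d2, Pllp, Ehf, Tac2, Sptssb and Tmprss5 were also higher than in day 3 SSEA1- cells. Of the 14 largest increases, Aqp4 alone passed against d6 SSEA1+ cells (log2 3.52). With the replicate block Aspa passed too (log2 1.71, adjusted p = 0.02). All 14 were also higher in d6 SSEA1+ cells than in MEFs, such as Slc12a3 (log2 11.84) and Cacna2d2 (log2 10.4). These increases were thus largely shared by both day 6 fractions.

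The largest decreases by the same rule included Lrrc15, Hgf, Cnn1 and Col7a1, given above. Adm2, a peptide hormone gene, had 0, 0.0808 and 0.0585 CPM, against 20.8, 11.9 and 14.2 CPM in MEFs (log2 -8.23 ± 1.32). Kif21b, a kinesin, had 2.67, 2.26 and 1.11 CPM, against 146, 185 and 163 CPM in MEFs (log2 -6.36 ± 0.50, adjusted p = 1.6e-09). Olr1, a scavenger receptor, fell by 7.36, Hhipl1 by 7.13, Spock3 by 6.76, Coch by 6.59, Trim66 by 6.54 and the serotonin receptor gene Htr2a by 6.23 on the log2 scale. The remaining members of this set, Slc16a3 and Aldh1l2, belong to metabolism.

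Genes of the ATF4 programme, which cells use to make and import amino acids under stress, were lower in d6 SSEA1- cells. Of 32 tested 24 fell and 2 rose (median -1.74), and 24 fell in every alternative setting. Slc7a5, a carrier of large amino acids, had 59.2, 48.3 and 48.7 CPM, against 550, 519 and 450 CPM in MEFs (log2 -3.28 ± 0.32). Slc6a9, a glycine carrier, had 2.43, 3.19 and 3.07 CPM, against 43.7, 46.2 and 38.7 CPM in MEFs (log2 -3.88 ± 0.48). Aldh18a1, of proline synthesis, had 65.3, 75.5 and 79.3 CPM, against 406, 271 and 330 CPM in MEFs (log2 -2.19 ± 0.23). The mitochondrial folate enzyme Mthfd2 had 17.0, 12.4 and 15.6 CPM, against 208, 163 and 128 CPM in MEFs (log2 -3.47 ± 0.39). Aldh1l2, of the same pathway, had 2.78, 5.25 and 5.91 CPM, against 384, 354 and 363 CPM in MEFs (log2 -6.30 ± 0.80). Stc2, a secreted stress protein, fell by 3.77 on the log2 scale. The d6 SSEA1- libraries were close to each other, with a mean log2(CPM + 1) over the list of 5.36, 5.35 and 5.36, against 7.45, 7.23 and 7.17 in MEFs. Atf4 itself had 159, 168 and 168 CPM, against 483, 335 and 354 CPM in MEFs (log2 -1.24 ± 0.23). Cth, which makes cysteine, and Slc7a3, a carrier of basic amino acids, were the 2 that rose, by log2 2.17 ± 0.38 and 1.86 ± 0.59; Slc7a3 lost its call without MEF replicate 1 (1.72, adjusted p = 0.05) or replicate 3 (1.65, adjusted p = 0.06) and without d6 SSEA1- replicate 1 (1.45, adjusted p = 0.067). Against day 3 SSEA1- cells 15 of the list were lower and none was higher, and Mthfd2 and Slc7a5 differed by -2.81 and -2.19 on the log2 scale. Against d6 SSEA1+ cells 3 were higher and 4 lower.

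ATF4 binds a composite site of which the letters TGATGNAA were searched here on both strands. Of 26 list members with a RefSeq promoter, 7 (26.9%) held them within 300 bases around the start, against 4.06% of 27025 promoters. Among the 20 that fell, 5 held them (25%), a share near that of the list. The list was picked as genes of the ATF4 programme, so its excess over all promoters is no result of these data. Windows of 3 are shown as in the contractile set, 250 bases before the start in GRCm38.p6 on the strand of the gene, with the match in capitals. Chac1 encodes a glutathione-degrading enzyme (chr2:119350992-119351241, plus strand), Asns asparagine synthetase (chr6:7693210-7693459, minus strand) and Pycr1 the last enzyme of proline synthesis (chr11:120643749-120643998, minus strand).
Chac1: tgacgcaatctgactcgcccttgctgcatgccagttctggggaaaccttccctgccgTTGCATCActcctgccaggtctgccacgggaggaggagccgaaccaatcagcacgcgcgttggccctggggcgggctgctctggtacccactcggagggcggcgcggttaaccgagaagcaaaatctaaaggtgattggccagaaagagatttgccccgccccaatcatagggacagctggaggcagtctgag
Asns: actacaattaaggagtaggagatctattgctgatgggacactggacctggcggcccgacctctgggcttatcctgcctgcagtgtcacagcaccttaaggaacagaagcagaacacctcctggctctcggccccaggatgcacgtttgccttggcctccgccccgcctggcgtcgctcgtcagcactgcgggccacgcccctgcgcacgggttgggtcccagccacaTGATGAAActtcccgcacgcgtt
Pycr1: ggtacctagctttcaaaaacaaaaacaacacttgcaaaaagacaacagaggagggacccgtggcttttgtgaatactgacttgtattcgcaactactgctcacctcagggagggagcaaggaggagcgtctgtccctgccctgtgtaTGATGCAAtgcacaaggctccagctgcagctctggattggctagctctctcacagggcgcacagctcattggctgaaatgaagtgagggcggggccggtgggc
The match begins 193 bases before the start in Chac1, 23 in Asns and 103 in Pycr1, and in Chac1 it reads on the opposite strand. Chac1 had 0.850, 0.930 and 1.08 CPM, against 62.0, 52.0 and 49.0 CPM in MEFs (log2 -5.82 ± 0.85). Asns had 103, 67.3 and 69.6 CPM, against 413, 311 and 304 CPM in MEFs (log2 -2.10 ± 0.37). Pycr1 had 10.4, 24.4 and 27.8 CPM, against 69.2, 84.8 and 95.9 CPM in MEFs (log2 -2 ± 0.55). These 3 were chosen after their values were seen. Slc7a11 and Nupr1 hold the letters too and did not pass the test.

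**Figure D5:**
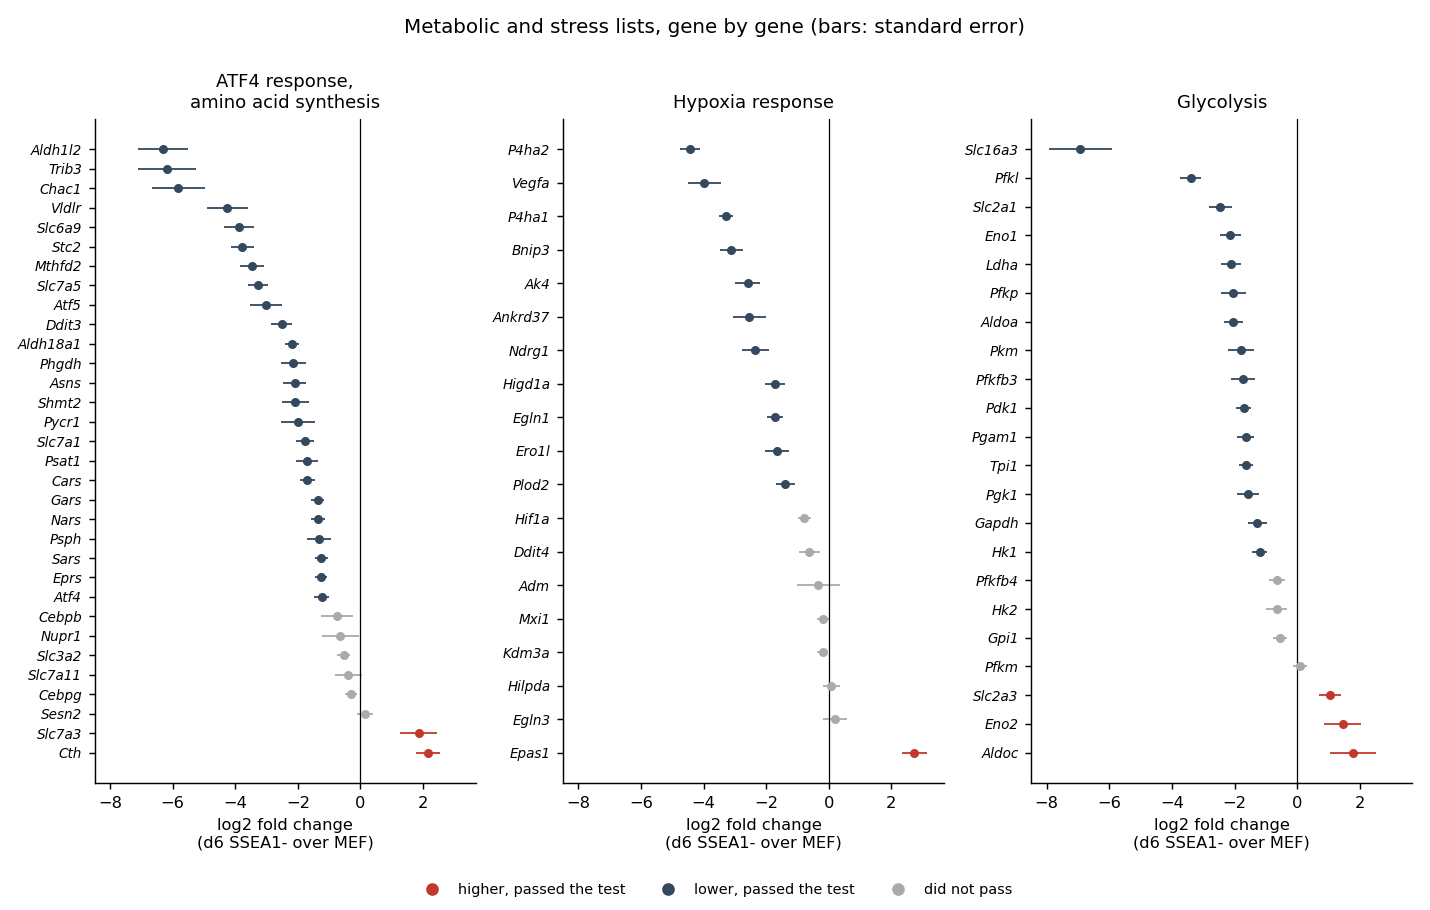
Log2 fold change of d6 SSEA1- over MEF for each tested gene of the ATF4, hypoxia and glycolysis lists, with bars of 1 standard error; dark points fell, red points rose and grey points did not pass. Most points lie left of 0, with Cth, Slc7a3, Epas1, Slc2a3, Eno2 and Aldoc as the genes that rose.

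Glycolytic genes fell at 15 of 22, with 3 up (median -1.64), and 15 fell under every alternative. Ldha, lactate dehydrogenase A, had 486, 567 and 491 CPM, against 3340, 1620 and 1670 CPM in MEFs (log2 -2.10 ± 0.32). Slc16a3, the lactate exporter MCT4, had 0.155, 10.2 and 2.19 CPM, against 728, 399 and 393 CPM in MEFs (log2 -6.93 ± 1.01). MEF replicate 1 was the highest library for both. Aldoa, Tpi1 and Pdk1 fell by 2.04, 1.63 and 1.71 on the log2 scale. The risers were the neuronal-type isoforms Slc2a3 (log2 1.05), Eno2 (log2 1.45) and Aldoc (log2 1.79), named for being the 3 that rose; the calls were lost in 8, 9 and 10 of 13 alternatives, and with other settings 0 to 3 rose.

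Targets of hypoxia-inducible factors, among them several glycolytic genes, fell at 11 of 19, with 1 up (median -1.66). P4ha1, a collagen prolyl hydroxylase, had 92.8, 122 and 87.4 CPM, against 1130, 933 and 866 CPM in MEFs (log2 -3.28 ± 0.22, adjusted p = 2.6e-10). Its relative P4ha2 had 23.6, 30.1 and 15.2 CPM, against 657, 370 and 461 CPM in MEFs (log2 -4.43 ± 0.33, adjusted p = 1e-09). Vegfa, the vascular growth factor, had 11.7, 30.2 and 22.8 CPM, against 259, 437 and 328 CPM in MEFs (log2 -3.98 ± 0.53). Bnip3, of mitophagy, had 20.7, 34.4 and 27.9 CPM, against 340, 151 and 225 CPM in MEFs (log2 -3.11 ± 0.36). Groups were far apart for each of these. The riser was Epas1, the gene of HIF-2 alpha, with 91.3, 105 and 42.4 CPM against 11.0, 10.7 and 14.5 CPM in MEFs (log2 2.73 ± 0.40); Hif1a did not pass (log2 -0.78 ± 0.20), though it did with the GC trend removed (-1.17).

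The core of the hypoxia response element, ACGTG, stood in 6 of 8 fallen list members with a RefSeq promoter (75%) and in 9 of 15 tested members (60%), against 19.7% of all promoters. The list was picked as targets of hypoxia-inducible factors, so its excess over all promoters is no result of these data. The letters ACGTG also form part of the E-box CACGTG, which other factors bind. P4ha1 is shown because it has the smallest adjusted p of the list; its single match lies 16 bases before the start: 250 bases, GRCm38.p6, chr10:59323046-59323295, plus strand, with the core in capitals, which reads ACGTG on the opposite strand.
P4ha1: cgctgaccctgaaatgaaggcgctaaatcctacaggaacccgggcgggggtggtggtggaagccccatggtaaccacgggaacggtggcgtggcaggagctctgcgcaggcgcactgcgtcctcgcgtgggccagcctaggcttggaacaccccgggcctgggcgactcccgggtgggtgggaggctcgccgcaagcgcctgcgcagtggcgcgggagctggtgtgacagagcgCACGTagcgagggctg
In Bnip3 the matches on the 2 strands overlap, 108 and 107 bases before the start.

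Of 23 chaperones of the endoplasmic reticulum 7 fell and none rose (median -0.82), and 12 fell without MEF replicate 3. P4hb, a subunit of prolyl hydroxylase, had 719, 842 and 757 CPM, against 3260, 2110 and 2180 CPM in MEFs (log2 -1.70 ± 0.22). Serpinh1, the collagen chaperone, had 761, 1630 and 1320 CPM, against 5230, 4070 and 4210 CPM in MEFs (log2 -1.86 ± 0.36). Of 21 cholesterol synthesis genes 10 fell and 1 rose, and 5 fell without MEF replicate 1. Srebf2, Fdps and Lss fell by 1.54, 1.58 and 1.43 on the log2 scale, while Ebp rose by log2 1.67 ± 0.24.

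Detoxification genes of the NRF2 and glutathione list rose at 7 of 22, with 1 down (median 0.52). Gsta4, a glutathione transferase for lipid aldehydes, had 659, 334 and 341 CPM, against 5.17, 1.77 and 2.23 CPM in MEFs (log2 7.12 ± 0.63, adjusted p = 7.7e-09). Mgst1, its microsomal relative, had 164, 335 and 320 CPM, against 12.3, 4.28 and 10.9 CPM in MEFs (log2 4.90 ± 0.64). Gstm1 and Gclm rose by log2 3.11 ± 0.50 and 1.79 ± 0.28. Hmox1 (log2 -0.71) and Txnrd1 (log2 -0.26), standard NRF2 targets, did not pass. Of 30 respiratory chain genes 6 rose, a share near the 15.8% of all genes, and 3 rose once the GC trend was removed. Ndufb3 had 45.4, 68.6 and 64.7 CPM, against 21.4, 20.5 and 23 CPM in MEFs (log2 1.46 ± 0.20). Of 25 ribosome biogenesis genes 6 rose and 1 fell, with 2 to 6 rising over the alternatives.

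Cell cycle genes passed at a share near that of all genes, and the calls depended on single libraries. Of 32 DNA replication genes 6 rose and none fell (median 0.41). Rfc4, of the clamp loader, had 19.4, 25.4 and 39.8 CPM, against 14.5, 5.58 and 7.10 CPM in MEFs (log2 1.62 ± 0.34). Mcm10 had 30.0, 32.5 and 55.5 CPM, against 25.4, 9.86 and 11.8 CPM in MEFs (log2 1.31). MEF replicate 1 was the highest MEF library for both genes. Without it 12 of the 32 rose, and without MEF replicate 2 it was 1 gene. Without d6 SSEA1- replicate 3, the highest of its group, 1 rose, and Mcm10 lost its call in both of these fits (0.97 and 0.98). The mitosis list gave 4 of 25, with 0 to 12 over the alternatives. Against day 3 SSEA1- cells, 8 replication and 14 mitosis genes were lower in d6 SSEA1- cells and none was higher; against d6 SSEA1+ cells 12 and 10 were lower.

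Among CDK inhibitors and p53 targets 5 of 23 rose and 1 fell (median 0.24), where 15.8% and 12.4% of all genes did so. Trp53inp1, a p53 target, had 724, 301 and 253 CPM, against 40.1, 110 and 89.2 CPM in MEFs (log2 2.42 ± 0.43). Eda2r rose by log2 1.73 ± 0.38. Cdkn1a, the p21 gene, had 766, 425 and 277 CPM, against 129, 460 and 305 CPM in MEFs and overlapped (log2 0.72, adjusted p = 0.2). Cdkn2a, of the INK4a/ARF locus, had 64.5, 128 and 44.9 CPM, against 20.7, 81.0 and 57.5 CPM in MEFs (log2 0.58, adjusted p = 0.41). Replicate 1 was highest for Trp53inp1 and Cdkn1a. Ccng1, Bax and Sesn1 rose in the full model and each lost its call in several alternatives: without d6 SSEA1- replicate 1, Ccng1 stood at 0.54 with an adjusted p of 0.36.

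Interferon-stimulated genes were mostly level with MEFs. Of 37 tested 5 rose and 2 fell (median 0.28). The share of risers was near the 15.8% of all genes. They included sensors of foreign nucleic acid, but the sensor genes Ddx58, Ifih1 and Eif2ak2 did not pass. Oas2 had 5.68, 6.10 and 5.76 CPM, against 0.0581, 0.279 and 0.139 CPM in MEFs (log2 5.25 ± 0.76). Zbp1 had 4.83, 8.93 and 7.43 CPM, against 0.407, 0.651 and 0 CPM in MEFs (log2 4.20 ± 0.83). Bst2, the tether of budding virus, had 41.1, 96.0 and 85.2 CPM, against 16.9, 6.88 and 8.49 CPM in MEFs (log2 2.77 ± 0.42). Ifi44 fell (log2 -2.32), a call lost without d6 SSEA1- replicate 3 (-1.91, adjusted p = 0.057). Isg15 (log2 -0.46) and Ifit1 (log2 0.21) did not pass. In contrast, 18 of the list were higher than in d6 SSEA1+ cells, Isg15 and Ifit1 among them at 3.07 and 3.91 on the log2 scale. Against day 3 SSEA1- cells 11 were higher, and none was lower in either comparison. Of all genes 10.1% and 4.65% passed upward in these comparisons. With the replicate block 19 and 15 of the list were higher.

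Chemokine and inflammatory genes rose at 8 of 24, with 4 down (median 0.39), and 4 rose without d6 SSEA1- replicate 2. Ccl2, which draws monocytes, had 101, 161 and 38.4 CPM, against 27.3, 9.02 and 14.1 CPM in MEFs (log2 2.57 ± 0.71). Saa3 was at least 56.9-fold higher, and Lcn2 had a ratio of 180 (95% counting interval 49.8 to 1490); both calls were lost without d6 SSEA1- replicate 2 (adjusted p = 0.089 and 0.11). Both peaked in d6 SSEA1- replicate 2, the library with the highest macrophage and immune marker sum of its group (249 CPM). MEF replicate 2 had a marker sum of 240 CPM. The MEF libraries held 0 Saa3 reads and 2 Lcn2 reads in all. The part of macrophages and other immune cells in this result was not tested. Nfkbia, the NF-kappaB inhibitor, had 109, 175 and 105 CPM, against 27.8, 37.6 and 31.9 CPM in MEFs (log2 2.00 ± 0.33). Il11, an interleukin that TGF-beta induces in fibroblasts, had 0.0773, 0.243 and 0.146 CPM, against 2.73, 7.34 and 2.92 CPM in MEFs (log2 -4.76 ± 0.77). Ptgs2, the COX-2 gene, fell by 3.71 on the log2 scale. Tap1, the peptide transporter, was the only one of 12 antigen presentation genes that rose (log2 1.63). Of 16 AP-1 and immediate early genes 7 fell and 1 rose. Fosl1 and Egr3 fell by 3.68 and 4.47; Jund fell by 2.00, but by 0.52 with an adjusted p of 0.052 once the GC trend was removed.

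Surface markers used to stage reprogramming split, with 7 of 21 up and 5 down. Podxl, a sialomucin, had 1070, 427 and 498 CPM, against 2.73, 0.651 and 1.39 CPM in MEFs (log2 8.63 ± 0.67, adjusted p = 1.4e-09). Ly6a, the Sca-1 antigen, had 1150, 618 and 393 CPM, against 24.6, 5.49 and 22.1 CPM in MEFs (log2 5.37 ± 0.75). Cd34 had 734, 416 and 406 CPM, against 51.7, 10.5 and 20.5 CPM in MEFs (log2 4.22 ± 0.58). Icam1 had 41.2, 38.1 and 22.8 CPM, against 6.74, 2.70 and 2.92 CPM in MEFs (log2 3.00 ± 0.54), and was higher than in both d6 SSEA1+ (log2 1.95) and day 3 SSEA1- cells (log2 1.61). Cd44 did not pass (log2 0.21 ± 0.45). Itgb3, an integrin of activated fibroblasts, fell by 3.38 on the log2 scale, without overlap.

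SSEA1 itself is made by fucosyltransferases, of which FUT9 and FUT4 are the known mouse enzymes. Fut9 had 4.29, 5.46 and 7.72 CPM in cells sorted as lacking the antigen, against 0.407, 0.558 and 0 CPM in MEFs (log2 4 ± 0.69, adjusted p = 6.2e-05). In d6 SSEA1+ cells it averaged 42.1 CPM, a log2 difference of -2.85. Fut4 had 2.82, 3.92 and 3.28 CPM, against 3.72, 4.28 and 1.95 CPM in MEFs, with full overlap (adjusted p = 1). Neither Fut8 (log2 0.24), Fut10 (log2 -0.08) nor Fut11 (log2 -0.50) passed, and Fut1, Fut2 and Fut7 were at 0.278 CPM or less in all 6 libraries. Of the enzymes that build the underlying chain, B3gnt7 had 10.7, 15.1 and 14.9 CPM, against 0.697, 2.14 and 0.139 CPM in MEFs (log2 3.72 ± 0.50). B3gnt5 fell by 1.84, a call lost without MEF replicate 1 (-1.23, adjusted p = 0.073), and B4galt2 fell by 1.05, a call lost with the GC trend removed (-0.88) and without d6 SSEA1- replicate 1 (-0.80). B4galt1 (log2 -0.95) lay just under the threshold and passed with DESeq2's Wald test (-1.06), and B4galt3 (log2 -0.23) and B3gnt2 (log2 -0.90) did not pass.

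Of 27 Polycomb and BAF subunits 8 rose and 1 fell (median 0.50), and 4 rose without MEF replicate 3. Cbx7, a Polycomb reader of pluripotent cells, had 32.0, 40.6 and 45.9 CPM, against 1.74, 2.60 and 4.45 CPM in MEFs (log2 3.82 ± 0.53). Pcgf6 had 29.9, 34.4 and 47.3 CPM, against 12.2, 15.5 and 11.8 CPM in MEFs (log2 1.5 ± 0.19). Ezh1 rose by log2 1.31 ± 0.26. Smarca4 (log2 -0.90) and Smarcc2 (log2 -0.98), of the BAF remodeller, did not reach the fold threshold. Both did with DESeq2's Wald test (-1.01 and -1.10), and Smarcc2 passed in 9 of 13 alternatives. Smarcd3 fell by 1.31, or by 0.95 and under the threshold with the GC trend removed. Dnmt3b, a de novo DNA methyltransferase, was the 1 of 15 DNA methylation genes that rose, with 11.4, 11.4 and 18.8 CPM against 4.30, 3.53 and 4.59 CPM in MEFs (log2 1.75 ± 0.47). Dnmt1 (log2 -0.10) and Tet1 (log2 -0.10) did not pass, and both were lower than in d6 SSEA1+ cells (log2 -1.64 and -1.96). Xist had 772, 1090 and 1130 CPM, against 224, 495 and 503 CPM in MEFs (log2 1.29 ± 0.70, adjusted p = 0.14), and passed when these 6 libraries were fitted alone (1.25, adjusted p = 0.027).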

How the data were processed

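The authors deposited whole-number read counts per Ensembl gene, 1 table per library, which the submitters' processing notes tie to the genome build mm9 and to STAR 2.3.0, Picard 1.100 and HTSeq 0.6.0, without giving roles. Libraries came from a strand-marking poly-A kit, per the labels' protocols, but the deposited names describe the counting as not stranded, so reads of overlapping antisense genes cannot be told apart, nor can those of near-identical copies. Summary rows naming no gene were left out; reads in no gene made up 5.54% to 9.95% of assigned, ambiguous and unassigned reads in the 6 libraries. Names, chromosomes and GC content came from GENCODE on GRCm38 and promoters from RefSeq on GRCm38.p6; no coordinates of the count files were used.

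Counts of 33 libraries in 11 groups entered edgeR 4.0.16 in R 4.3.3 (filterByExpr, TMM, glmQLFit with robust dispersion, glmQLFTest), leaving 17326 genes and 22 residual degrees of freedom. Python 3.11.15 made tables and figures. Counting intervals and the floor of 3 reads over a group cover counting error only. Alternatives were DESeq2 1.42.0, its size factors, no filter, 2-group fits, GC removal, a replicate block and leaving out each library. Same-numbered libraries deviated together against d6 SSEA1+ (r = 0.476, 0.30 and 0.555 across genes) and d3 SSEA1- (r = 0.645, 0.557 and 0.482), which counts as pairing found in the data; the labels state none.

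Named genes were the 14 largest increases and decreases among genes that passed, did not overlap, reached a mean of 10 CPM where they were higher, and had a standard gene name, plus up to 6 members per list with the smallest p, all factor and fucosyltransferase genes, and 11 genes by name; others are said to lie outside the rule or were chosen after their values were seen. Comparisons, lists and members were chosen with earlier results of these data known.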

Additional observations from a re-analysis of the deposited data

How the results depend on the processing

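Of 253 named genes tested, 215 passed, and 35 of these lost the call in at least 1 alternative; of 60 further genes named outside the rule 23 passed, and 10 of these lost the call in at least 1 alternative. No call reversed. Counts against MEF stayed within 1.5 times of 2733 higher and 2155 lower: 2075 to 2904 and 1814 to 2274 when 1 library was left out, and 2810 and 2341 with a replicate block. Numbers did not pair d6 SSEA1- with MEF libraries (r = 0.018, 0.191 and 0.054). Against d6 SSEA1+, leaving out 1 library gave 1277 to 1775 higher and 819 to 1131 lower. The comparison with d3 SSEA1- was the least stable. Its 805 higher genes became 1235 with DESeq2's Wald test, 212 with the 2 groups alone and 1228 with the replicate block. Its 214 lower genes became 343 with the GC trend removed, 58 with the 2 groups alone, 131 without the filter on low counts and 439 with the block and the GC trend removed together. Leaving out 1 library gave 158 to 1054 higher and 41 to 498 lower; d3 SSEA1- replicate 1 gave the lowest of both and d6 SSEA1- replicate 1 the highest of both. The cause was not tested. The median log2 change of all genes against MEF was 0.13, 0.02 with DESeq2's size factors and 0 with the GC trend removed. MEF replicate 3, with 8927873 reads in genes, limits the detection of genes silent in MEFs.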

Other observations

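Imprinted, germline and extraembryonic genes were described as 3 further lists in the same fit of d6 SSEA1- against MEF. Of 16 imprinted genes, whose single active allele follows the parent of origin, 1 rose and 4 fell (median -0.57). Igf2r, which clears the growth factor IGF2, had 323, 259 and 259 CPM in d6 SSEA1- cells, against 1160, 977 and 933 CPM in MEFs (log2 -1.87 ± 0.22, adjusted p = 4.1e-07). Nnat had 56.1, 71.6 and 96.6 CPM, against 18.4, 5.11 and 3.76 CPM in MEFs (log2 2.99 ± 0.81). Several members varied more between libraries of one group than between the groups: H19 had 5230, 6640 and 7870 CPM in d6 SSEA1- cells, against 6560, 575 and 3090 CPM in MEFs (log2 0.95 ± 0.73, adjusted p = 0.31). Dlk1 had 1.51, 6.10 and 28.6 CPM, against 302, 17.4 and 47.6 CPM in MEFs, and its call (log2 -3.34 ± 1.22, adjusted p = 0.03) was lost without MEF replicate 1 (-1.54, adjusted p = 0.34).

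Of 21 germline and piRNA genes 3 rose and none fell, a share of risers near the 15.8% of all genes. The list median was 1.14, but 0.37 with DESeq2's Wald test. When the 2 groups were fitted alone, 8 of the 21 were tested and 3 rose. Piwil2 had 1.55, 1.82 and 7.84 CPM in d6 SSEA1- cells, against 0.0581, 0.465 and 0.278 CPM in MEFs (log2 3.95 ± 0.88), and Dmrtc2 had 4.94, 13.2 and 26.4 CPM with 1 read over the MEF libraries. Both were highest in replicate 3 and both were higher than in day 3 SSEA1- cells (log2 2.99 and 3.19). Ddx4, Dazl and Mael stayed at or under 0.695 CPM in all 6 libraries. Of 14 trophoblast and endoderm genes 3 rose and 1 fell: Gata6, an endoderm factor, had 1.74, 3.07 and 2.02 CPM, against 14, 18.8 and 8.63 CPM in MEFs (log2 -2.60 ± 0.61), whereas Plet1 had 22, 0.687 and 4.04 CPM, against 0.174, 0 and 0.139 CPM in MEFs (log2 6.24 ± 1.62). Cdx2 had no reads in any of the 6 libraries.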
